A study of Caenorhabditis elegans with 42 samples.

Results

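Astacins are secreted or membrane-bound zinc metalloproteases that share a catalytic domain with crayfish astacin. Caenorhabditis elegans carries an unusually large family of them, named nas for nematode astacin, and the studied members act outside cells on the cuticle, the eggshell and other extracellular matrix. NAS-36 and NAS-37 are needed for worms to shed the old cuticle at a moult, NAS-38 acts in the sleep that accompanies each moult, and NAS-6 and NAS-7 act in the pharynx, where they help form the grinder. RNAs of many cuticle and moulting genes are known to rise and fall within each larval stage. The nas genes are all genes whose deposited name is nas followed by a number, 37 of the 30304 genes in the tables, and the rule used no measured value.

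The series compared RNA of mutants in the ADAR genes with RNA of the wildtype strain N2. Editing of adenosine to inosine in double-stranded RNA is carried out by ADR-2, while ADR-1 binds such RNA, lacks deaminase activity and regulates editing. The mutants were BB19, adr-1(tm668), and BB2, adr-1(gv6), with editing altered, and RB886, adr-2(ok735), and BB3, adr-2(gv42), with editing lost. Worms were grown at 20 °C, embryos were taken with hypochlorite, and L4 larvae, the last larval stage, were raised from hatchlings starved for 24 h. By the labels, embryos were sequenced in 4 libraries of N2, 2 of BB2 and 3 of each other mutant, and L4 larvae in 3 per strain. A further experiment in young adults pulled down FLAG-tagged ADR-1 in HH76, where the tagged adr-1 is on an extrachromosomal array in adr-1(tm668), and in HH134, the same array in adr-1(tm668);adr-2(ok735). The array also carries rab3::gfp::unc-54. Its control BB21 is adr-1(tm668);adr-2(ok735) without the array. Both tagged strains thus differed from the control in having an adr-1 transgene and this reporter, and HH76 differed in adr-2 as well. Each of these 3 strains has 2 pulled-down and 2 input libraries.

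The deposited values were group means of normalised counts, scaled anew in each of 8 tables of 1 mutant against N2, and the depth per library is unknown. A gene was called where the adjusted p in the authors' deposited table was under 0.05, and a log2 ratio compares the mutant with the N2 mean. The 4 tables of a stage share their N2 libraries. A range of N2 means given for a gene therefore reflects this scaling and not a spread between libraries. At ratios near 0 the deposited call did not always follow the printed ratio. In BB3 at L4 lrp-1 was called at a log2 ratio of 0.01, while dpy-5, with higher means, was not called at -0.09. The direction of a call at such a small ratio is therefore uncertain, and calls with counting error alone are compared below. Over 1436 to 4017 genes per table, the deposited p-values followed counting error in the median. The median ratio of their z to that of counting alone lay between 0.941 and 1.15. They therefore hold little spread between libraries, which may itself be technical. For this reason an error and a second count of calls are given with counting error and an assumed spread of 20% between libraries. A difference between strains was called in this model at a Benjamini-Hochberg adjusted p under 0.05 over all genes, and no p is printed for it, since it rests on that assumption and not on replicates. The targeted genes were lower in their mutants, adr-1 by log2 ratios of -2.05 and -2.55 in embryos of BB19 and BB2 and of -1.69 and -0.90 at L4, and adr-2 by between -4.11 and -3.51 in RB886 and BB3. In the L4 libraries labelled BB2 adr-2 was also lower, at -0.65. Low values in BB2 embryos were spaced as from 3 libraries, where the labels give 2, and those in BB2 at L4 showed 2 distinct steps, where the labels give 3. The numbers of the labels were used, and libraries scaled alike would share a step.

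In N2 embryos 19 nas genes had a mean of at least 10 in every table, and in N2 at L4 29 did. Of the 37 genes, 31 had a higher N2 mean at L4 than in embryos under the scaling of every table, and 5 a lower one. The tables of a stage rescale the same N2 libraries, so this is a single comparison. The stages were scaled separately, and the difference was not tested. No share over all genes was computed beside it, so it is not shown to be particular to nas genes. The moulting protease gene nas-37 had N2 means from 7.32 to 7.68 in embryos and from 774 to 863 at L4. In the other direction nas-39, which encodes a protease with a tolloid-like domain arrangement, had N2 means from 422 to 442 in embryos and from 143 to 160 at L4. 6 genes, nas-2, nas-10, nas-16, nas-17, nas-18 and nas-40, stayed under 10 in every mean of every strain, and nas-40 is annotated as a pseudogene in the WBcel235 assembly. All 8 marker genes of the epidermis, where cuticle is made, had a non-zero mean in N2 or the mutant in each table. This low bar does not measure how much epidermis was sampled.

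Many nas genes were higher in mutant embryos and many were lower in mutant L4 larvae. In embryos 15 of 37 were called higher in BB19 and 2 lower, where 13.2% and 16.8% of all tested genes were. In BB2 embryos 16 were higher and 2 lower, beside 18.7% and 16.7% of all genes. In RB886 embryos 7 were higher and 0 lower, beside 9.27% and 8.93%, and in BB3 embryos 12 were higher and 1 lower, beside 10.4% and 5.83%. At L4 the direction was mainly the opposite, with 7 higher and 18 lower in BB19 beside 17.3% and 15% of all genes. In BB2 at L4 9 were higher and 16 lower, beside 16.2% and 18.4%. In RB886 at L4 4 were higher and 14 lower, beside 9.42% and 8.06%, and in BB3 at L4 6 were higher and 15 lower, beside 8.51% and 8.4%.

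As shares of the nas genes with a p-value, the higher calls in embryos came to 40.5% in BB19, 43.2% in BB2, 18.9% in RB886 and 33.3% in BB3. The lower calls at L4 came to 50.0%, 43.2%, 38.9% and 41.7% in the same order. Weakly expressed genes lower the share over all genes. Where the larger mean was 10 or more, 21.3%, 29.4%, 15.4% and 17.1% of all genes were called higher in embryos of BB19, BB2, RB886 and BB3, and 21.9%, 26.9%, 12.1% and 12.4% lower at L4. Under the same limit 15 of 20, 15 of 21, 7 of 19 and 12 of 20 nas genes were called higher in embryos, and 17 of 30, 15 of 30, 13 of 29 and 14 of 29 lower at L4. The median log2 ratio of the nas genes was 0.60 in BB19 and 0.63 in BB2 embryos and 0.23 in RB886 and 0.26 in BB3 embryos, where the median over all genes lay between -0.02 and 0.05. At L4 it was -0.63 in BB19, -0.44 in BB2, -0.10 in RB886 and -0.35 in BB3, where the median over all genes lay between -0.02 and 0.02.

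**Figure D1:**
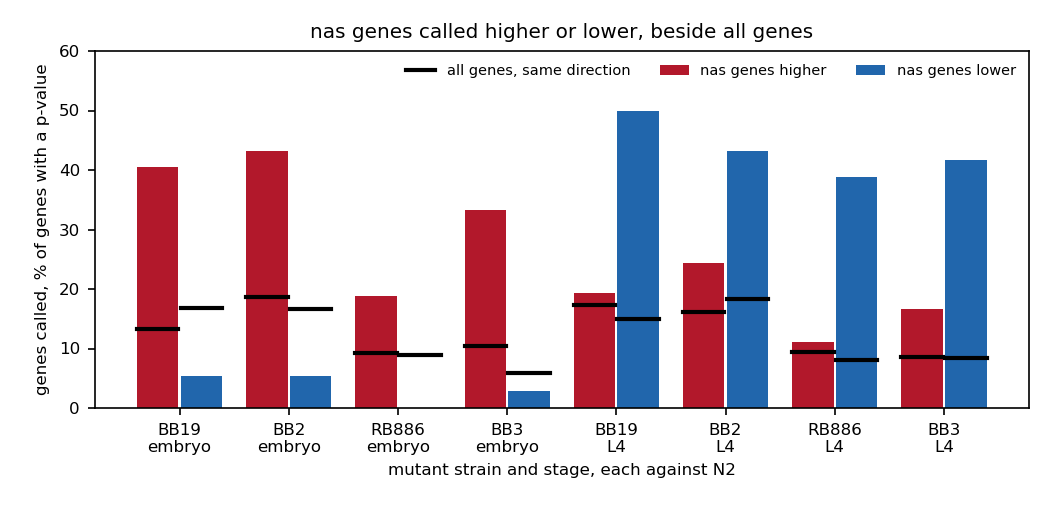
Share of genes called at a deposited adjusted p under 0.05 in each mutant strain and stage against N2, in percent of the genes with a p-value, for nas genes higher (red bars) and lower (blue bars) and for all genes in the same direction (black lines). The red bars stand above the lines in all 4 embryo tables, and the blue bars stand above the lines in all 4 L4 tables.

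With the assumed spread of 20%, the counts of calls in embryos fell to 6 in BB19, 7 in BB2, 0 in RB886 and 0 in BB3, beside 2.4%, 4.39%, 0.189% and 0.479% of all genes in either direction. At L4 they were 18 in BB19, 10 in BB2, 3 in RB886 and 4 in BB3, beside 4.87%, 5.01%, 1.57% and 1.5% of all genes. The calls that a spread of this size left in embryos were nas-5, nas-8, nas-11, nas-13, nas-31 and nas-38 in BB19 and nas-6, nas-8, nas-11, nas-12, nas-13, nas-31 and nas-38 in BB2. At L4 they were nas-9, nas-20 and nas-24 in RB886 and nas-1, nas-9, nas-24 and nas-27 in BB3, so every other L4 call in the adr-2 alleles was lost with this spread. For the median gene with means of at least 100, the difference between the adr-1 alleles was that of a spread of 9.73% in embryos and 19.2% at L4, and between the adr-2 alleles of 11% and 11.7%. Single genes differed by more.

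**Figure D2:**
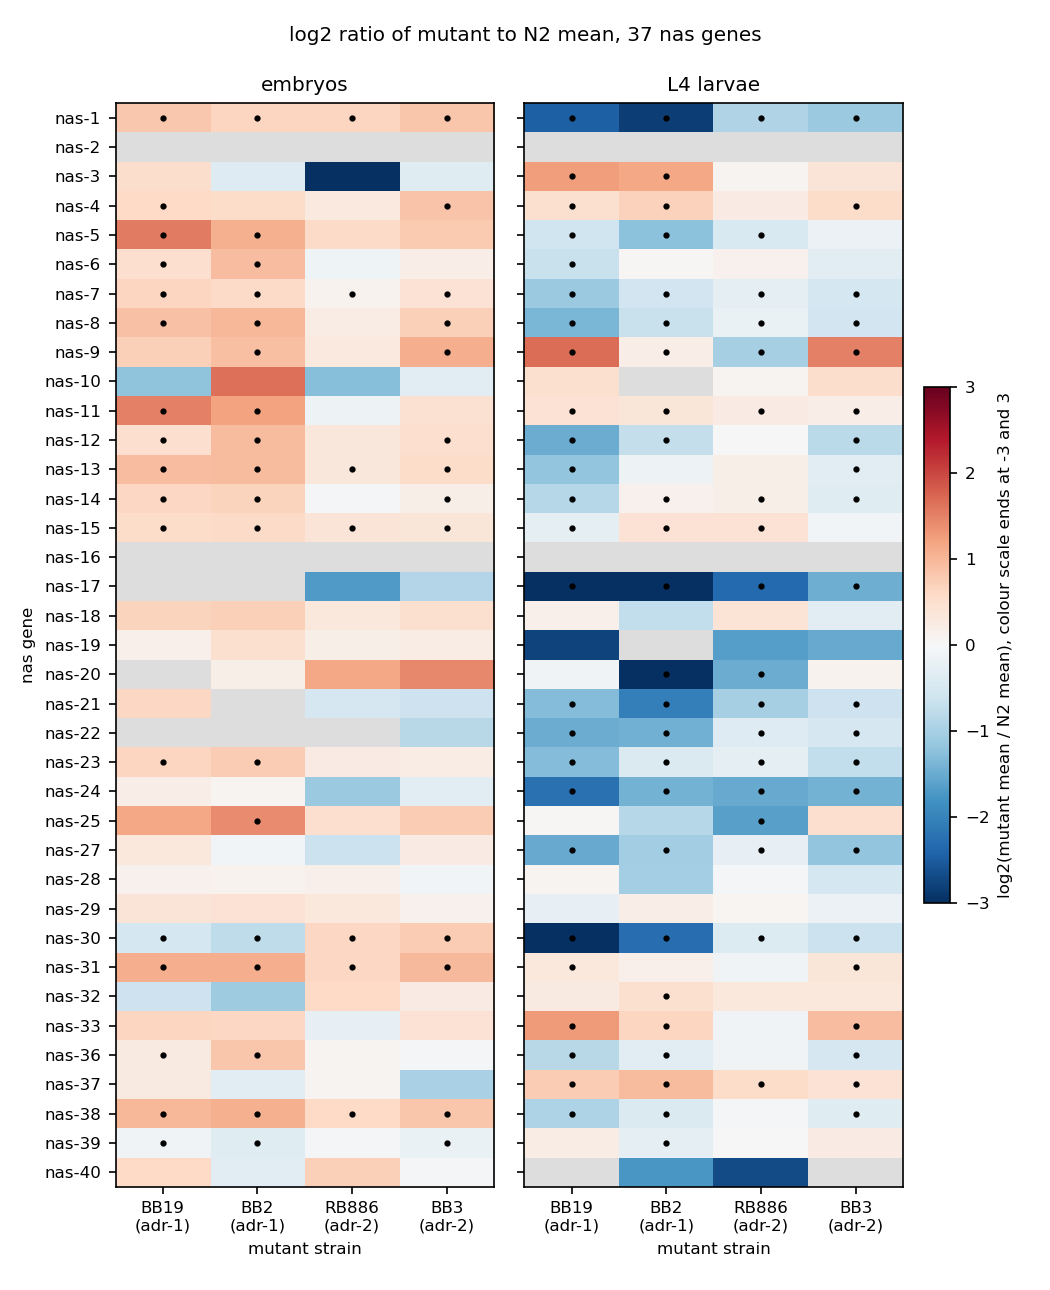
Log2 ratio of mutant to N2 mean for the 37 nas genes (rows) in the 4 mutant strains (columns) in embryos and L4 larvae. Red is higher and blue lower in the mutant, a black dot marks a deposited adjusted p under 0.05, and grey marks a ratio with a mean of 0. The embryo panel is mainly red and the L4 panel mainly blue from nas-17 to nas-30.

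In embryos 14 nas genes were called higher in both adr-1 alleles and 2 lower, and 10.6% of all genes were called higher and 10.6% lower in both. In both adr-2 alleles 7 were called higher and 0 lower, beside 4.57% and 3.03% of all genes. Since the tables share N2, such a gene is not seen in independent comparisons, and the values of each strain are given side by side. Of the 14 genes, nas-5, nas-11 and nas-31 were at least 2-fold higher in both adr-1 alleles, beside 1.76% of all genes. In these whole embryos, more or fewer cells of a type and more or less RNA per cell cannot be told apart.

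Among the moulting genes, nas-38 had N2 means from 119 to 125 in the embryo tables and mutant means of 236 in BB19, 261 in BB2, 191 in RB886 and 213 in BB3. The log2 ratios were 0.98 (SE 0.24), 1.07 (SE 0.27), 0.61 (SE 0.24) and 0.84 (SE 0.24), with this SE from counting error and the assumed spread. For nas-36 the embryo means in the mutants were 69.0, 106, 63.8 and 55.1 in the same order, beside 57.7 to 60.6 in N2, and it was called higher in the adr-1 alleles alone. nas-37 was low in embryos, with mutant means from 3.72 to 8.76, and was called in no embryo table.

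The pharyngeal protease gene nas-7 had embryo means of 419 in BB19, 412 in BB2, 302 in RB886 and 359 in BB3 and N2 means from 267 to 280. The log2 ratios were 0.65, 0.57, 0.11 and 0.43, all called in the deposited tables. The call in RB886 was lost with counting error alone. nas-6 had embryo means of 90.0 in BB19 and 123 in BB2, called higher, and 60.5 in RB886 and 72.3 in BB3, not called, beside 62.9 to 66.0 in N2. The mean difference between the adr-1 and the adr-2 strains was 0.68 on the log2 scale for nas-6 (SE 0.20, called in the model with the assumed spread). The summed embryo level of 6 pharynx marker genes had log2 ratios of 0.66 in BB19, 0.39 in BB2, 0.05 in RB886 and 0.46 in BB3. In RB886 2 of these markers were called higher and 2 lower, with a median log2 ratio of -0.11. The part of these markers in the result was not tested.

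nas-6 and nas-7 belong to the run of 10 genes from nas-6 to nas-15. Of these 10, 8 were called higher in BB19, 9 in BB2, 3 in RB886 and 7 in BB3, and 0 were called lower in any of the 4 strains. The shares of all genes called higher were 13.2%, 18.7%, 9.27% and 10.4% in that order, and 21.3%, 29.4%, 15.4% and 17.1% where the larger mean was 10 or more. nas-11 rose in the adr-1 alleles, from N2 means of 18.7 to 19.6 to 53.3 in BB19 and 44.8 in BB2, while its means in RB886 and BB3 were 17.6 and 25.8. The log2 ratios were 1.51 (SE 0.30) and 1.21 (SE 0.34) in the adr-1 alleles and -0.15 (SE 0.34) and 0.46 (SE 0.32) in the adr-2 alleles. The adr-1 strains exceeded the adr-2 strains by 1.20 (SE 0.24, called in the model). Both annotated transcripts of nas-11 gave nearly the same ratios, 1.51 and 1.52 in BB19, but they may share reads, so the transcript cannot be told apart.

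Of the other genes in that run, nas-8 had embryo means of 140, 157, 91.9 and 123 in BB19, BB2, RB886 and BB3 and N2 means from 75.6 to 79.2, and was called in all but RB886. nas-13 had means of 204, 215, 141 and 157 beside 107 to 112 in N2 and was called in each strain. nas-12, at 58.0, 81.5, 53.8 and 58.2 beside 40.8 to 42.7, was called in all but RB886. The smaller rises of nas-14 and nas-15 had log2 ratios of 0.62 and 0.55 in BB19, 0.67 and 0.58 in BB2, -0.05 and 0.38 in RB886 and 0.18 and 0.36 in BB3, with nas-14 in RB886 the only one not called. nas-9 passed in BB2 and BB3, with means of 19.6 and 21.3 beside 10 to 10.5 in N2, and nas-10 was too low for a call, its embryo means all lying under 5.

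**Figure D3:**
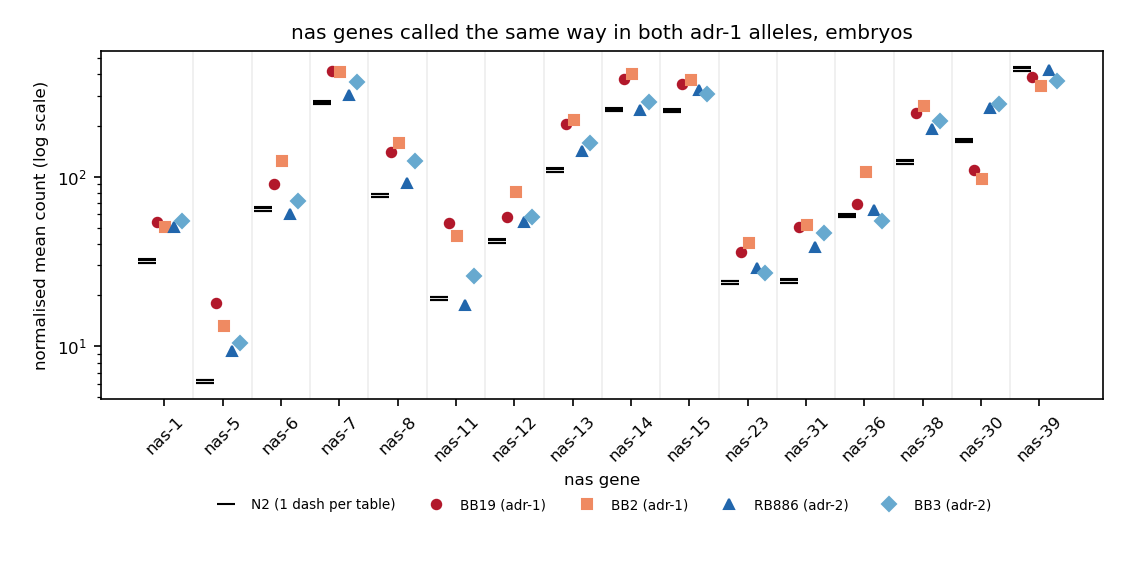
Normalised mean count in embryos (log scale) of the 16 nas genes called the same way in both adr-1 alleles, with 1 black dash per table for N2 and 1 symbol for each mutant strain. For nas-11 the adr-1 strains, at 53.3 and 44.8, stand apart from N2 and the adr-2 strains, and for nas-30 the adr-1 strains lie below N2 and the adr-2 strains above.

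Outside that run, nas-1 had embryo means of 53.9 in BB19, 50.2 in BB2, 50.4 in RB886 and 54.7 in BB3 beside 30.9 to 32.5 in N2. These 4 mutant means lay close together, with log2 ratios of 0.80, 0.65, 0.64 and 0.82, all called. nas-31 rose from N2 means of 23.7 to 24.8 to 50.3, 52.1, 38.4 and 46.4 in the same order, called in each strain, with log2 ratios of 1.09 (SE 0.29), 1.08 (SE 0.32), 0.63 (SE 0.30) and 0.97 (SE 0.29). nas-5 was low but rose in the adr-1 alleles, from 6.06 to 6.35 in N2 to 17.9 in BB19 and 13.2 in BB2, and its means of 9.43 in RB886 and 10.5 in BB3 were not called. nas-23 was called higher in the adr-1 alleles only, at 36.1 and 40.7 beside 23.3 to 24.4 in N2. nas-25 passed in BB2 alone, at 9.24 beside 3.44. nas-4 passed in BB19 and BB3, at 22.2 and 26.4 beside 14.6 in N2. The 18 genes called in no embryo table include nas-37 and the neighbours nas-20, nas-21 and nas-22, whose embryo means all lay under 1.

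nas-30 took opposite directions in embryos of the mutants. Its N2 means lay between 159 and 166, and the mutant means were 110 in BB19, 97.3 in BB2, 254 in RB886 and 269 in BB3. Both adr-1 means lay below N2 and both adr-2 means above it, with log2 ratios of -0.53 (SE 0.24), -0.76 (SE 0.28), 0.61 (SE 0.23) and 0.76 (SE 0.23). The adr-1 strains differed from the adr-2 strains by -1.33 on the log2 scale (SE 0.19, called in the model). The summed level of 10 oocyte and early embryo marker genes also took opposite directions, with log2 ratios of -0.23, -0.21, 0.20 and 0.14 in the same order, and its part in the result was not tested. nas-39, the other gene called lower in both adr-1 alleles, had means of 389 and 341 beside 422 to 437 in the N2 of those tables, with log2 ratios of -0.12 and -0.36. It was also called lower in BB3, at -0.21.

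The comparison of adr-1 with adr-2 strains in embryos called 3 of 35 testable nas genes, the nas-6, nas-11 and nas-30 named above, beside 1.92% of all genes. Between the adr-1 alleles 0 of 33 were called and between the adr-2 alleles 0 of 35, beside 2.6% and 0.291% of all genes, and 1 gene in each comparison had an unadjusted p under 0.05 in that model. Markers of other tissues were also summed in these embryos. Body wall muscle markers had log2 ratios of 0.46, 0.21, 0.00 and 0.34 in BB19, BB2, RB886 and BB3, and neuron markers 0.48, 0.42, 0.14 and 0.23. Intestine markers had 0.41, 0.24, -0.11 and 0.10, while epidermis markers had -0.01, -0.09, -0.16 and 0.02. The part of these differences in the nas calls was not tested.

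At L4, 14 nas genes were called lower in both adr-1 alleles and 6 higher, beside 8.89% and 7.82% of all genes. In both adr-2 alleles 10 were called lower and 2 higher, beside 2.77% and 4.04%. At least 2-fold in both alleles were 7 genes lower and 1 higher in adr-1, beside 0.923% and 1.24% of all genes, and 2 lower in adr-2, beside 0.262%. Of the 14 genes from nas-16 to nas-30, 7 were called lower in BB19, 8 in BB2, 9 in RB886 and 7 in BB3, beside 15%, 18.4%, 8.06% and 8.4% of all genes, and 0 higher in any of them.

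nas-30 fell in all 4 strains, from N2 means of 434 to 484 at L4 to 51.7 in BB19 and 89.3 in BB2. Its means in RB886 and BB3 were 356 and 303. The log2 ratios were -3.23 (SE 0.27), -2.28 (SE 0.26), -0.40 (SE 0.24) and -0.65 (SE 0.24). The adjusted p in the authors' deposited table was 1.68e-278, 4.12e-205, 2.8e-09 and 4.14e-35 in that order. The adr-1 strains lay below the adr-2 strains by a further -2.23 (SE 0.19, called in the model), and this difference was also called with an assumed spread of 40%. In RB886 and BB3 the fall was not called with the assumed spread of 20%.

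nas-1 turned from higher in every mutant embryo table to lower in every mutant L4 table. At L4 its N2 means were 74.6 to 83.2, and the mutant means were 15.3 in BB19, 10.5 in BB2, 43.4 in RB886 and 37.8 in BB3. The log2 ratios were -2.44 (SE 0.33), -2.83 (SE 0.36), -0.90 (SE 0.28) and -1.11 (SE 0.29). The adr-1 strains were lower than the adr-2 strains by -1.62 (SE 0.25, called in the model), a difference also called with a spread of 40%.

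nas-24 fell in all 4 strains, from N2 means of 23.2 to 25.9 to 5.46 in BB19, 8.64 in BB2, 8.79 in RB886 and 9.50 in BB3. Its log2 ratios of -2.25 (SE 0.45), -1.42 (SE 0.41), -1.52 (SE 0.40) and -1.42 (SE 0.39) were called in each table, and it was the one gene also called in each of them with the assumed spread. nas-27 had means of 91.8, 113, 212 and 113 beside 233 to 260 in N2. It fell at least 2-fold in all but RB886, where its log2 ratio was -0.25, and the adr-2 alleles differed by 0.93 (SE 0.26, called in the model). nas-17 was listed at 0.279 in BB19, 0.503 in BB2, 1.73 in RB886 and 3.16 in BB3 beside 8.02 to 8.94 in N2. These low means correspond to about 1 read in BB19 against 27 in N2, a ratio of 0.0312 with a 95% counting interval from 0.000905 to 0.225, and to about 2 reads in BB2 against 24, a ratio of 0.0627 with an interval from 0.00955 to 0.336.

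nas-20, nas-21 and nas-22 lie next to each other in the genome in the WBcel235 annotation. nas-21 had L4 means of 14, 7.43, 16.8 and 22 in BB19, BB2, RB886 and BB3 beside 30.8 to 34.4 in N2, and nas-22 had 47.4, 43.8, 97.9 and 91.4 beside 118 to 132. Both were called lower in every table, though with the assumed spread of 20% in BB19 and BB2 alone, and for nas-22 the adr-1 strains lay below the adr-2 strains by -1.0 (SE 0.20, called in the model). Their neighbour nas-20 behaved differently, as given below with the other genes whose alleles differed. nas-23 had means of 114, 187, 225 and 166 beside 250 to 279 and was called lower in each.

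Among genes of the pharynx at L4, nas-7 had means of 287 in BB19, 376 in BB2, 500 in RB886 and 427 in BB3 beside 557 to 621 in N2. The log2 ratios were -1.11 (SE 0.24), -0.57 (SE 0.24), -0.27 (SE 0.24) and -0.52 (SE 0.24), all called. nas-6 was called lower in BB19 alone, at 110 beside 175 in the N2 of that table. The summed pharynx markers had log2 ratios of 0.09, 0.30, 0.08 and 0.11 at L4, and their part in the result was not tested. nas-8 fell like nas-7, with means of 200, 292, 436 and 340 beside 465 to 518. nas-12 fell in all but RB886, with means of 29.0, 44.4 and 45.8 in BB19, BB2 and BB3 beside 72.9 to 81.3. Its mean in RB886 was 78.2, beside 78.9 in the N2 of that table, and was not called. nas-5 fell in all but BB3, with means of 41.0 in BB19, 23.6 in BB2 and 43.3 in RB886 beside 55.3 to 61.6.

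The moulting genes split at L4. nas-37 rose from N2 means of 774 to 863 to 1470 in BB19, 1500 in BB2, 1230 in RB886 and 1150 in BB3, by log2 ratios of 0.77 (SE 0.24), 0.96 (SE 0.24), 0.55 (SE 0.24) and 0.43 (SE 0.24). With the assumed spread of 20% it was called in BB19 and BB2 but not in RB886 or BB3. nas-36 had means of 283, 356, 457 and 349 beside 452 to 504, and nas-38 had 359, 447, 633 and 521 beside 608 to 678. Both were called lower in all but RB886, where the log2 ratios were -0.10 for nas-36 and -0.06 for nas-38. nas-39 was called in BB2 alone, with a log2 ratio of -0.27 at L4.

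Fewer nas genes were higher at L4. nas-11 rose in every table, from N2 means of 561 to 625 to 849 in BB19, 718 in BB2, 718 in RB886 and 707 in BB3, although the log2 ratios of 0.44, 0.36, 0.24 and 0.20 were not called with the assumed spread. nas-33 had means of 63.6, 36.9, 23.9 and 49.6 beside 23.6 to 26.4 in N2 and nas-4 had 286, 295, 235 and 295 beside 184 to 205, and both were called higher in all but RB886. For nas-4 this depended on the transcript chosen, since its transcript C05D11.6b was called higher in RB886, at a log2 ratio of 0.27. nas-3 passed only in the adr-1 alleles, at 12.1 and 10.1 beside 4.54 to 5.06, so that it rests on few reads. nas-31 rose slightly in BB19 and BB3, with log2 ratios of 0.32 and 0.36, and nas-32 in BB2, with 0.47. Of the members not yet named at this stage, nas-28 and nas-29 had mutant means from 6.01 to 14.5 and from 82.1 to 101 and were called in no table of either stage, and nas-18, nas-19 and nas-40 stayed at or under 6.02 in mutants without a call.

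**Figure D4:**
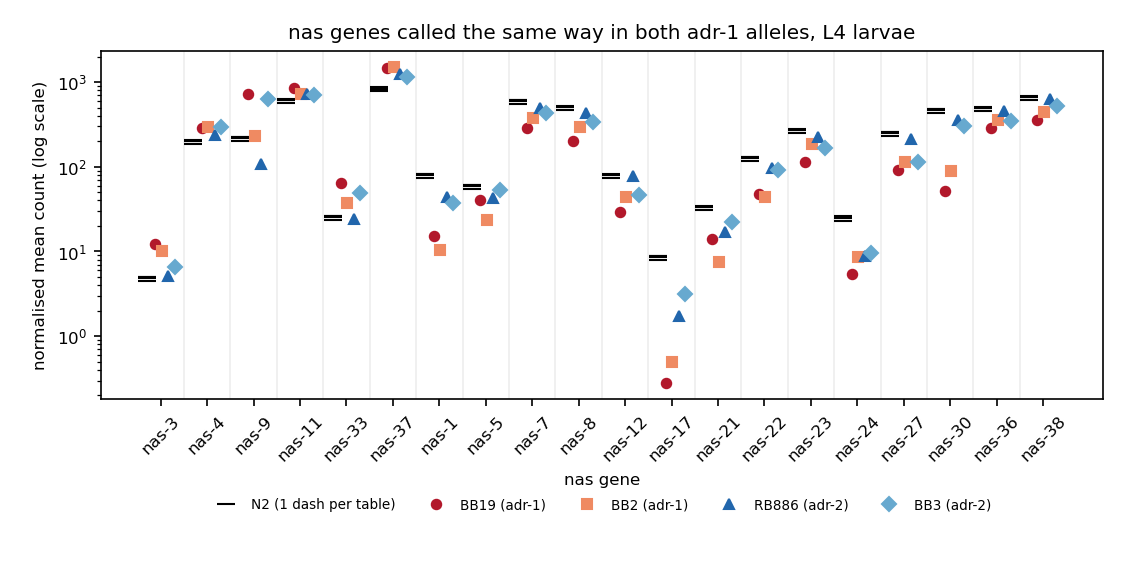
Normalised mean count at L4 (log scale) of the 20 nas genes called the same way in both adr-1 alleles, first the 6 higher and then the 14 lower, with 1 black dash per table for N2 and 1 symbol for each mutant strain. For nas-1 and nas-30 the adr-1 strains lie far below the adr-2 strains, which lie below N2.

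Several nas genes differed between alleles of the same gene at L4. The model called 6 of 35 between the adr-1 alleles and 4 of 35 between the adr-2 alleles, beside 4.1% and 1.97% of all genes. nas-20 had means of 163 in BB19, 11.4 in BB2, 61.1 in RB886 and 186 in BB3 beside 158 to 176 in N2. BB19 and BB3 lay near N2, whereas BB2 and RB886 were far lower, with log2 ratios of -0.12 (SE 0.25), -3.79 (SE 0.35), -1.48 (SE 0.27) and 0.11 (SE 0.25). BB19 exceeded BB2 by 3.66 (SE 0.35, called in the model), and RB886 lay below BB3 by -1.59 (SE 0.27, also called). With an assumed spread of 40% the first of these was still called and the second was not.

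nas-9 split the alleles in another way, with L4 means of 725 in BB19, 233 in BB2, 109 in RB886 and 629 in BB3 beside 203 to 226 in N2. BB19 and BB3 were high, BB2 was slightly above N2 and RB886 was below it, with log2 ratios of 1.68 (SE 0.24), 0.20 (SE 0.25), -1.01 (SE 0.26) and 1.5 (SE 0.24). RB886 lay below BB3 by -2.51 (SE 0.25, called in the model, also called with a spread of 40%), and BB19 exceeded BB2 by 1.48 (SE 0.24, called at 20% but not at 40%). The 3 annotated transcripts of nas-9 had log2 ratios of 1.70, 1.69 and 1.68 in BB19 and of -1.04, -1.03 and -1.01 in RB886. nas-25 was called lower in RB886 alone, at 4.93, where the other mutant means were 16, 7.72 and 21.8 beside 14 to 15.6 in N2.

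Between the adr-1 alleles nas-13, nas-14, nas-23 and nas-30 were also called. nas-14 had means of 368 in BB19, 650 in BB2, 728 in RB886 and 510 in BB3 beside 597 to 665 in N2, called lower in BB19 and BB3 and higher in BB2 and RB886. The rise in BB2, a log2 ratio of 0.12, was not called with the assumed spread or after centring. The alleles of adr-1 differed by -0.98 (SE 0.24, called in the model). nas-13 fell in BB19, to 80.4 beside 182, and less in BB3, to 141 beside 180, and its means of 146 in BB2 and 199 in RB886 were not called. nas-15 had means of 1120, 1650, 1790 and 1270 beside 1230 to 1370, lower in BB19, higher in BB2 and RB886 and not called in BB3. Its ratios in the adr-1 alleles, -0.28 and 0.42, were called in opposite directions in the deposited tables, but the difference between them was not called in the model.

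Markers of later development also differed between the strains at L4. Adult yolk genes, the vitellogenins that worms begin to make near adulthood, had summed log2 ratios at L4 of 0.44 in BB19, -1.75 in BB2, -0.78 in RB886 and -0.23 in BB3. All 6 were called higher in BB19 and lower in the other 3 strains. Oocyte and early embryo markers, in another order, had summed log2 ratios of 0.25, -0.76, -0.06 and -0.23, and epidermis markers 0.00, 0.47, 0.39 and 0.10. The part of these differences in the results for nas-20 and nas-9 was not tested. The stage reached within L4 and the strain cannot be told apart from group means.

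**Figure D5:**
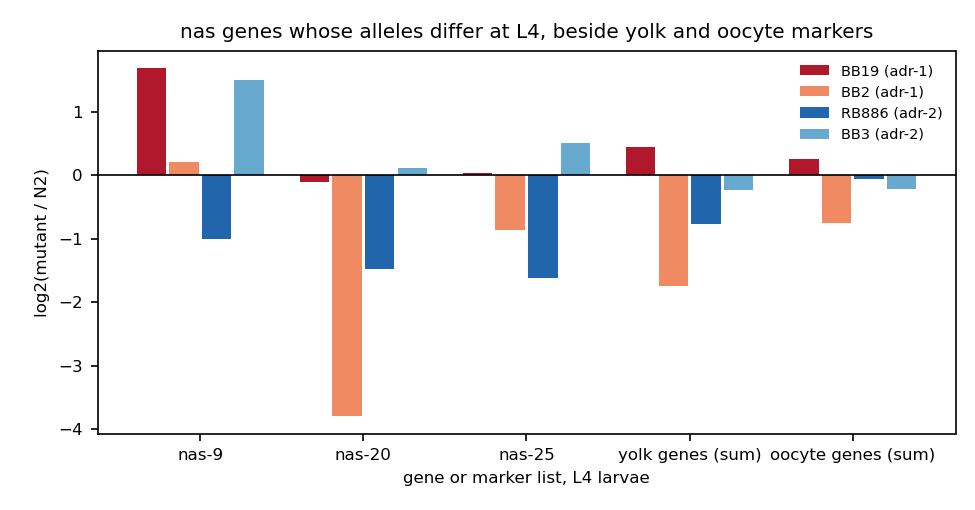
Log2 ratio of mutant to N2 at L4 for nas-9, nas-20 and nas-25 and for the summed means of 6 adult yolk and 10 oocyte marker genes, 1 bar per mutant strain. nas-20 and the yolk genes are lowest in BB2 and next lowest in RB886, and nas-9 is high in BB19 and BB3.

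Over the adr-1 and adr-2 strains, 8 of 35 nas genes differed at L4 in the model, beside 3.65% of all genes. They were nas-1, nas-8, nas-9, nas-12, nas-13, nas-20, nas-22 and nas-30. For nas-9, nas-12 and nas-20 the alleles of each gene differed by more than the genotypes did. For nas-12 the differences between alleles, -0.77 (SE 0.31) for BB19 minus BB2 and 0.79 (SE 0.28) for RB886 minus BB3, were not called, and the genotypes differed by -0.69 (SE 0.21). For nas-8 and nas-13 the adr-1 alleles, but not the adr-2 alleles, differed by more than the genotypes. Of the 21 differences called between alleles or genotypes at either stage, 4 were called with an assumed spread of 40%.

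Astacins under other names, namely toh-1, dpy-31 and hch-1, were set beside the nas genes. toh-1, a tolloid homolog, showed the same reversal between stages, with embryo means of 384, 374, 319 and 402 beside 233 to 244 in N2 and L4 means of 363, 239, 581 and 521 beside 723 to 807. All 8 differences were called. dpy-31, which cleaves cuticle procollagen, was called higher at L4 in BB19, BB2 and BB3, with log2 ratios of 0.32, 0.43 and 0.30. In embryos it was called higher in BB19, at 0.19, and lower in RB886, at -0.25. hch-1, the hatching protease, was called lower in embryos of BB2 and RB886, by -0.33 and -0.22. In BB3 embryos hch-1 was called at -0.04, a ratio so small that its direction is uncertain.

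Other genes of the cuticle and of moulting gave other counts than the nas genes at L4, a contrast that was not tested. Of 30 cuticle and moulting genes, 13 were called higher and 14 lower in BB19, 23 and 1 in BB2, 20 and 3 in RB886 and 15 and 5 in BB3, with medians of -0.02, 0.53, 0.33 and 0.01. In embryos 9, 3, 2 and 2 were called higher and 8, 19, 17 and 7 lower in the same order. There 13.2%, 18.7%, 9.27% and 10.4% of all genes were called higher and 16.8%, 16.7%, 8.93% and 5.83% lower. For L4, the shares of all genes called higher and lower are those given above beside the nas counts of each strain. The counts of cuticle and moulting genes include calls at log2 ratios near 0, whose direction is uncertain. Examples are lrp-1 at 0.01 in BB3 at L4 and mlt-11 at -0.0006 in BB19 embryos. The largest rises of these genes at L4 were those of fbn-1, a fibrillin-like matrix gene, and let-653, which encodes a mucin-like matrix protein. Their log2 ratios were 1.79, 2.07, 0.93 and 1.22 for fbn-1 and 2.30, 2.19, 1.22 and 1.26 for let-653. mlt-11, which encodes a protein with protease inhibitor domains, had L4 log2 ratios of 1.02, 1.32, 0.89 and 0.67, all called. These genes do not stand for the whole list. For example, nhr-25 had -0.51, -0.09, -0.07 and -0.39 at L4, called lower in BB19 and BB3. The peroxidase gene mlt-7 moved in the same directions as nas-1, with 1.03, 0.97, 0.61 and 0.72 in embryos and -0.70, -0.87, -0.50 and -0.11 at L4, all called. Its ratio of -0.11 in BB3 at L4 is so small that its direction is uncertain, since mlt-8 at -0.11 was not called there. Of 12 other metalloprotease and inhibitor genes, 3, 3, 2 and 4 were called higher and 4, 5, 3 and 3 lower in embryos, and 5, 6, 5 and 2 higher and 4, 3, 0 and 2 lower at L4. The shares of all genes beside them are the same as for the cuticle and moulting genes.

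RNA pulled down with ADR-1 in young adults was also examined for nas RNAs. The authors' deposited table lists 1237 bound genes for HH76, 4.08% of the genes in the strain tables, and 1 of them is a nas gene. For HH134 it lists 1215, or 4.01%, with 2 nas genes. With 37 members these counts are near the shares over all genes. These tables hold bound genes alone, so a level in the pulled-down RNA is given for no other member. nas-11 was in both, with a log2 ratio of tagged strain to control in the authors' deposited table of 2.18 (SE 0.60, adjusted p = 0.00597) in HH76 and 2.37 (SE 0.36, adjusted p = 1.18e-08) in HH134. By that ratio it ranked 651 of 1237 and 507 of 1215, close to the middle of each list. nas-20 was listed for HH134 alone, with a log2 ratio of 3.13 in the authors' deposited table (SE 1.04, adjusted p = 0.025). The lists share 828 genes, 66.9% of that for HH76 and 68.1% of that for HH134. Of the members, only nas-11 was listed as bound in both strains. It was called higher in embryos of the adr-1 but not the adr-2 alleles, while at L4 it was called higher in all 4 mutant strains. Whether the binding, measured in young adults, bears on its level was not tested.

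Gene names listed by the authors as changed in each genotype included several members. nas-11 and nas-31 are among the 374 genes listed as up in adr-1 embryos, a list that holds 1.23% of all genes. Of the 187 genes listed as down in adr-1 at L4, 7 are nas genes, namely nas-1, nas-17, nas-21, nas-22, nas-24, nas-27 and nas-30, and nas-24 is the one among the 44 listed as down in adr-2 at L4. These lists hold 0.617% and 0.145% of all genes. The other 5 lists hold 0 nas genes.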

How the data were processed

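Per the labels, RNA of high molecular weight was freed of ribosomal RNA and made into stranded libraries. Bowtie, DESeq and the build ce10 appear in the submitters' processing notes without version or role. Per the file headers, the expression signal is the authors' normalised mean count per strain, the fold is the authors' ratio of mutant to N2 mean, and raw and adjusted p-values were computed by the authors. The deposited log2 fold change of bound genes has a standard error beside it and a test statistic, a score column. The use of the input libraries is not given in the sources.

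The deposited tables hold group means, so no count test was possible, and dates in titles could not be used. Of 34873 transcripts, that with the largest summed mean stood for its gene, which was called at a deposited adjusted p under 0.05. Errors of ratios and differences between strains (N2 cancels in the latter) were computed in Python 3.11.15 (numpy 2.4.6, pandas 2.3.3) from approximate reads with an assumed spread of 20% between libraries, a normal two-sided test and Benjamini-Hochberg adjustment over all genes. This difference test was added after the data were seen, and its code was tested on simulated data. Alternatives were an adjusted p under 0.01, a 2-fold limit, a mean of at least 10, any transcript, centring, a pseudocount of 1 and counting error alone. The members and lists were chosen with earlier results of these data known. Members were named in full where called the same way in both alleles, called at 2-fold, bound or with a known role. No gene sequence was used. The WBcel235 annotation matched 37 of 37 members and was used for names and neighbours, since its build differs from ce10. Reads shared by overlapping or closely similar genes could not be told apart.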

Additional observations from a re-analysis of the deposited data

Results flagged for a closer look

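In embryos nas-30 lay below N2 in both adr-1 strains and above N2 in both adr-2 strains, and the difference between the genotypes was -1.331 on the log2 scale in the model with the assumed spread of 20%. With a spread of 40% it was not called.

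At L4 nas-14 was called lower in BB19 and higher in BB2, which carry different alleles of adr-1, and the difference was -0.976. With a spread of 40% this difference was not called. The higher call in BB2, a log2 ratio of 0.12, was lost with the assumed spread of 20% and after centring.

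At L4 nas-9 was called lower in RB886 and higher in BB3, which carry different alleles of adr-2, and the difference was -2.507. It was also called with a spread of 40%.

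These 3 results stand here because the strains compared moved in opposite directions. Samples could not be examined for outliers, since the deposited values are group means.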

How the results depend on the processing

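The deposited means give no value per library, so leaving out each replicate was not run, and the precision rests on counting error and an assumed spread. No paired analysis was possible because the tables hold group means, and no replicate block could be added. A 2-fold limit left 3 calls in BB19, 5 in BB2, 0 in RB886 and 1 in BB3 embryos, of 17, 18, 7 and 13. At L4 it left 15, 10, 5 and 5 of 25, 25, 18 and 21. In both alleles it left 3 of 16 for adr-1 and 0 of 7 for adr-2 in embryos, and 8 of 20 and 2 of 12 at L4. The assumed spread of 20% left 6, 7, 0 and 0 calls in embryos and 18, 10, 3 and 4 at L4, and 5, 0, 8 and 1 in both alleles. An adjusted p under 0.01 left 7 calls for adr-2 at L4 in both alleles and 1 bound gene in HH134. The other counts, under those settings and under a mean of at least 10, any transcript, centring, counting error alone and BB19 alone, stayed within 1.5 times. Counting error alone, BB19 alone and the spread of 40% were chosen after seeing the data. No called ratio reversed its sign, and a pseudocount of 1 moved 15 of 143 called and 18 of 74 uncalled ratios of named genes by at least 0.1. Centring with the p recomputed from counting error ended 6 calls of named genes. Of these, nas-7 in RB886 embryos and nas-36 and nas-39 in BB19 embryos were also lost with counting error alone, and nas-9 in BB2 at L4 and nas-14 in BB3 embryos and in BB2 at L4 were not.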
